A study of Oryza sativa with 2 samples.

Results

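OsWRKY11 is a rice transcription factor of the WRKY family, whose members bind DNA through a WRKY domain and are best known for recognising a short element called the W-box, with the core TTGAC. Rice chromosomes end in telomeres, arrays of a short repeat that cap the DNA, and the sequence next to them often holds blocks that are repeated at several ends. In japonica rice the nucleolar organiser, the arrays of ribosomal RNA genes, lies at the tip of the short arm of chromosome 9. The data described here are the peaks of Myc-tagged OsWRKY11 within 1 Mb of a chromosome end: those with a summit in the first 1 Mb of the sequence (the start side), or less than 1 Mb before the last position listed on that chromosome (the far side). There were 494 such peaks among 6672 in the deposited list, 207 on the start side and 287 on the far side, and 6166 other peaks on the 12 numbered chromosomes served as the comparison. Distances and positions are in the coordinates of the list, whose genome build is not given in the sources used here. Positions were therefore not assigned to genes, and no base sequence is shown.

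The material was shoots of rice plants (genotype transgenic pUbi:OsWRKY11-Myc), an overexpression line in which a ubiquitin promoter, and not the gene's own, drives the tagged factor. Plants were 3 weeks old per the series' design, whereas both sample titles carry 30D. Chromatin was fixed with 1% formaldehyde, and ChIP-seq (sequencing of the DNA pulled down with an antibody) gave 1 anti-Myc library, compared with 1 input library, the same kind of chromatin sequenced without an antibody. Both libraries come from tagged plants, there was no replicate of either, and untagged plants were not analysed here.

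Each listed peak has a pileup (the number of ChIP fragments over its summit), a fold of that pileup over the local background, and a q-value, all of them the authors' values. The background, the fragments expected without binding, was solved from pileup and fold. Its most common value of 5.69 fragments is the genome-wide floor, and a higher one reflects more input DNA at that place. Peaks with a background of at least 2 times the floor are called high-background below. Total reads are not given, so this floor and the pileups are the depth behind each value: at the floor, 17 fragments gave a fold of 2.69 and a q of 0.0538, and 18 gave 2.84 and 0.0192. One fragment thus separated peaks that passed a q of 0.05 from those that did not. Intervals are 95% intervals for counting error, and peaks and fragments are not replicates, so no test over peaks was made.

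Most peaks near the chromosome ends had folds as low as the rest of the list. The highest folds were found among the other peaks, a far larger set, as the ends held 7.42% of the peaks on the numbered chromosomes. The median fold was 2.39 near the ends, with quartiles of 2.24 and 2.55, and 2.39 at the other peaks, with quartiles of 2.23 and 2.54. The list holds no fold under 2.00, and 56.1% of end peaks and 58.1% of the others lay at the floor. There folds move in steps of whole fragments, with 2.24 at 14 and 2.39 at 15. Equal medians are therefore partly set by the list itself. The highest fold was 4.43 among the 494 end peaks and 19.7 among the 6166 others. Folds of 5 or more were found at 0 of 494 end peaks, which allows a share of up to 0.607%, and at 15 of 6166 others (0.243%). The share on all numbered chromosomes was 0.225%, under that limit, so a lower share near the ends is not resolved. Folds of 4 or more occurred at 2 end peaks (0.405%, 95% Wilson interval 0.111 to 1.46%) and 40 others (0.649%, 0.477 to 0.882%), where the whole list had 0.629%. At a limit of 3 the numbers were 25 (5.06%, 3.45 to 7.36%) and 273 (4.43%, 3.94 to 4.97%), against 4.48% in the whole list. The intervals overlapped at both limits. Of the 25, 12 were peaks over high input coverage, and among the remaining peaks, over a low background, the order was the other way, 13 of 460 near the ends (2.83%, 1.66 to 4.77%) and 262 of 6066 elsewhere (4.32%, 3.84 to 4.86%), again with overlapping intervals.

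High input coverage was more frequent among the end peaks, mostly at 2 of the 24 ends. High-background peaks made up 34 of 494 peaks near the ends (6.88%, 4.97 to 9.46%) and 100 of 6166 elsewhere (1.62%, 1.34 to 1.97%), with 2.01% in the whole list. The ends held 6.44% of the sequence up to the last listed positions, 7.42% of the peaks and 25.4% of the 134 high-background peaks on the numbered chromosomes. These 34 were concentrated at few ends: 18 lay at the far end of chromosome 5 and 7 at the start of chromosome 6, and the other 9 were spread over 6 further ends. Without those leading 2 ends, 9 of 436 peaks were high-background (2.06%, 1.09 to 3.88%), a share whose interval overlaps that elsewhere. The pair was chosen after the counts were seen, so a lower share was built in. No such omission was made among the other peaks. Of the 34, 25 had their summit within 100 kb of the end.

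The share of peaks that passed a q of 0.05 followed the same pattern and is not a separate result. No listed peak had a fold under 2.00. Over a high background such a fold nearly always passed q, at 33 of 34 peaks near the ends and 94 of 100 elsewhere. The share past q was 101 of 494 near the ends (20.4%, 17.1 to 24.2%) and 949 of 6166 elsewhere (15.4%, 14.5 to 16.3%), against 15.8% in the whole list. High-background peaks were 33 of the 101 (32.7%), and 9.91% of those past q elsewhere. Among low-background peaks the shares were 68 of 460 (14.8%, 11.8 to 18.3%) and 855 of 6066 (14.1%, 13.2 to 15%). Without the far end of chromosome 5 and the start of chromosome 6, again chosen after the counts were seen, the share near the ends was 70 of 436 (16.1%, 12.9 to 19.8%). The whole list had 15.8%. At the floor background, 37 of 277 end peaks (13.4%, 9.85 to 17.9%) and 444 of 3581 others (12.4%, 11.4 to 13.5%) had 18 fragments or more.

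**Figure D1:**
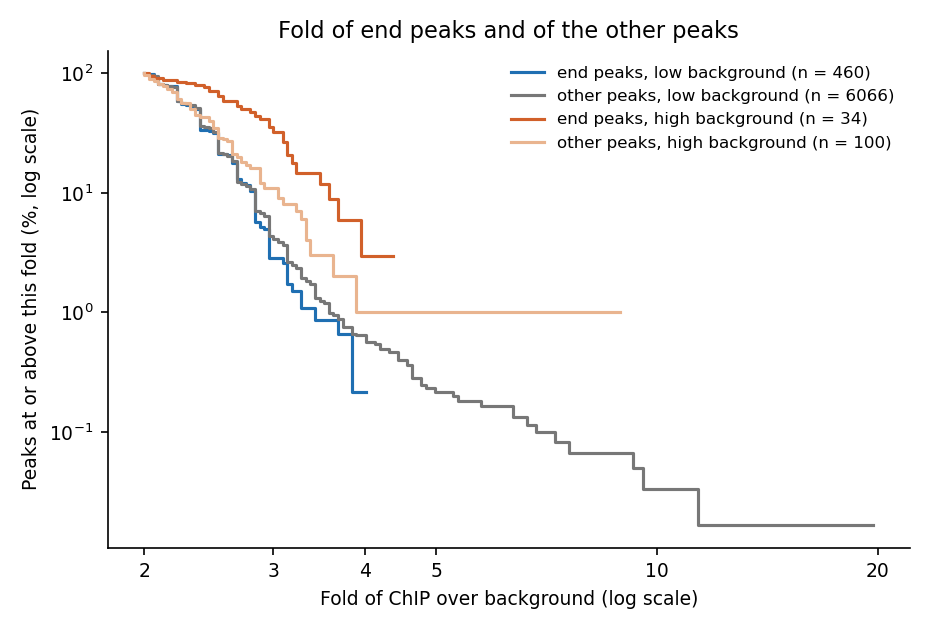
Share of peaks (percent, log scale) at or above each fold of ChIP over background (log scale), for end peaks and the other peaks, each split by background. Among low-background peaks the end peaks reach 4.04 and the others 19.7. The 34 high-background end peaks, with a median fold of 2.76, lie to the right of the 100 elsewhere, with a median of 2.35. This holds up to their highest fold of 4.43, while 1 high-background peak elsewhere reaches 8.95.

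By distance, the share past q was highest in the last 100 kb. Within 100 kb of an end 30 of 74 peaks passed q (40.5%, 30.1 to 51.9%), and 25 of the 74 were high-background. At 100 to 250 kb 12 of 73 passed (16.4%, 9.66 to 26.6%), and at 500 to 1000 kb 39 of 241 (16.2%, 12.1 to 21.4%). Among low-background peaks only, the share within 100 kb was 6 of 49 (12.2%, 5.73 to 24.2%), next to 61 of 482 (12.7%, 9.98 to 15.9%) at 1000 to 2000 kb. Leaving out the far end of chromosome 5 and the start of chromosome 6 left 7 of 50 peaks past q within 100 kb. The distance limits and the pair of ends left out were chosen after the list was seen.

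Peaks were also denser near the far ends. The start windows held 17.2 peaks per Mb (95% Poisson interval 15 to 19.8) and the far windows 23.9 (21.2 to 26.8), with 17.7 (17.2 to 18.1) in the rest of the chromosomes. In the far windows the density was 38.3 per Mb (28.1 to 51.1) in the last 100 kb and 27.2 (20.1 to 36) at 100 to 250 kb. Of the 46 peaks in the last 100 kb, 12 were the last listed peaks from which distances are measured, and 16 lay on chromosome 5. Without the former the density there was 28.3 (19.6 to 39.6), without chromosome 5 it was 27.3 (18.4 to 38.9), and without both 17.3 (10.4 to 27), close to that of the rest of the chromosomes. The same omissions, chosen after the list was seen, left 27.9 (20.4 to 37.2) at 100 to 250 kb and 21.8 (19.1 to 24.8) over the whole 1 Mb. In the start windows the densities were 23.3 (15.5 to 33.7) and 13.3 (8.54 to 19.8). The order held farther inside, where at 2000 to 4000 kb the start side had 16.8 peaks per Mb (15.2 to 18.5) and the far side 21.4 (19.6 to 23.3). The higher density was thus not limited to the last 1 Mb.

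**Figure D2:**
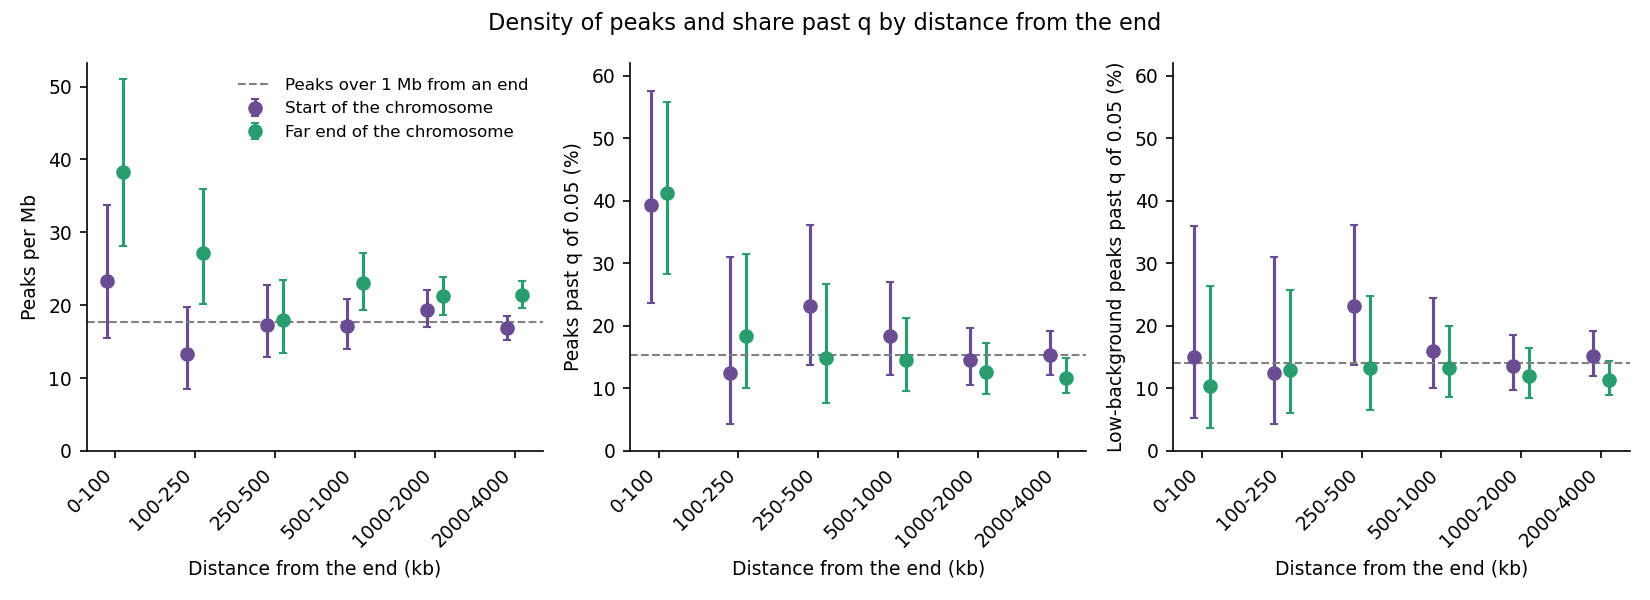
Peaks per Mb (left), percent of all peaks past q (middle) and percent of low-background peaks past q (right) against distance from the end in kb, for the 12 starts and the 12 far ends pooled. Bars are 95% intervals for counting error and the dashed line is the value of peaks over 1 Mb from an end, so the high share of 40.5% within 100 kb appears with all peaks and not with low-background peaks alone (12.2%).

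The far windows are measured from the last listed peak and so always contain it, while the start windows are measured from the first base. The first peak on a chromosome lay between 3.04 kb (chromosome 9) and 372 kb (chromosome 4) from the start, with a median of 31.8 kb. Without the last peak of each chromosome the far windows still held 275 peaks, 22.9 per Mb. With the start windows measured from the first listed position, they held 224. How much of each window could be mapped, or is missing from the assembly, was not tested.

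Chromosome by chromosome, the far end held more peaks than the start on 9 of 12 chromosomes. Chromosomes 2, 3 and 12 were the exceptions, with 26, 22 and 19 peaks at the start and 18 at each far end. The number per start ran from 10 (chromosome 10) to 26 (chromosome 2), with a median of 17, and per far end from 17 (chromosome 10) to 36 (chromosomes 5 and 6), with a median of 23. The share past q showed no such order: it was 45 of 207 at the starts (21.7%, 16.7 to 27.8%) and 56 of 287 at the far ends (19.5%, 15.3 to 24.5%), higher at the far end on 5 chromosomes and at the start on 6. Among low-background peaks 34 of 196 at the starts (17.3%, 12.7 to 23.3%) and 34 of 264 at the far ends (12.9%, 9.36 to 17.5%) passed q, with overlapping intervals. All 24 ends had at least 1 peak past q. The highest share was 54.5% at the start of chromosome 6 (12 of 22) and the lowest 3.70% at the far end of chromosome 1 (1 of 27).

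**Figure D3:**
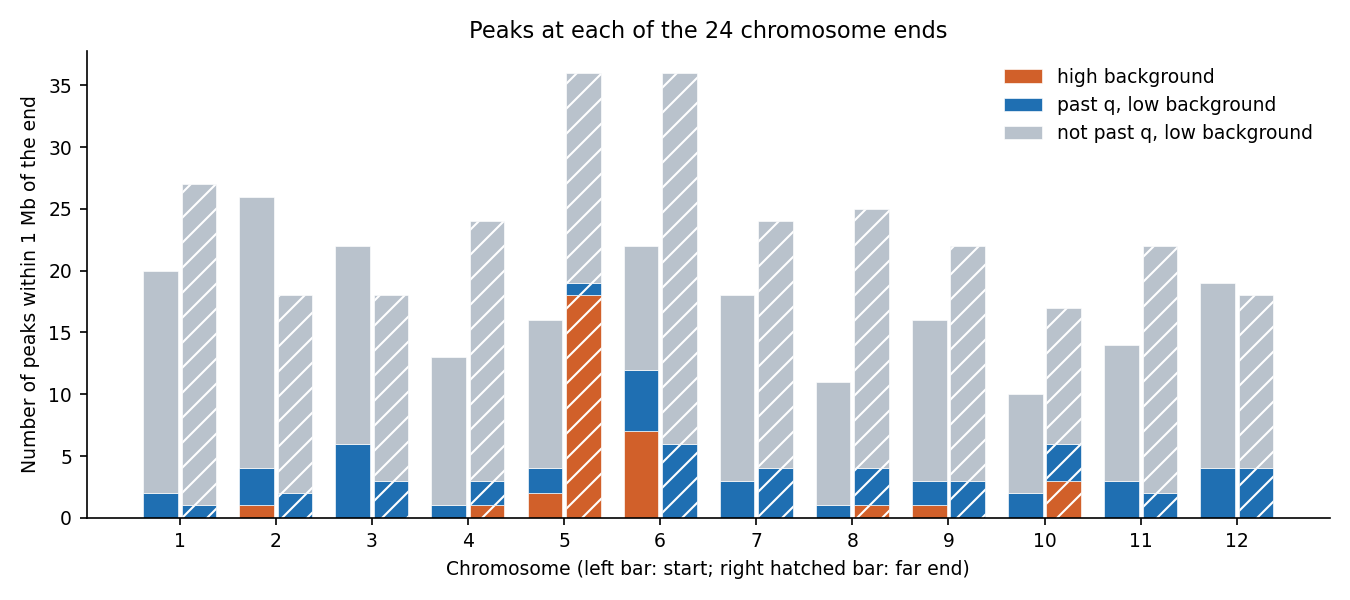
Number of peaks within 1 Mb of each of the 24 ends, by chromosome, with the start as the left bar and the far end as the hatched right bar, split into high-background peaks, low-background peaks past q and the rest. The far ends of chromosomes 5 and 6 hold 36 peaks each, of which 18 and 0 are high-background.

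The far end of chromosome 5 had the densest group. Of its 36 peaks, 18 were high-background and all 18 passed q, as did 94 of 100 high-background peaks elsewhere (94.0%, 87.5 to 97.2%). They lay within 153 kb of the last listed position, and 15 of them formed an unbroken series (at most 20 kb between neighbours past q) from 29885179 to 29957417, a span of 72.2 kb with a median gap of 2124 bp. Its largest gap was 19829 bp, just under that limit, so a limit of 10 kb would divide the series. The span and the count of 15 therefore depend on the limit. These 15 peaks were 180 to 207 bp wide, with pileups of 68 to 382 ChIP fragments and backgrounds of 3.75 to 25 times the floor. One further peak inside that stretch, with 26 ChIP fragments, narrowly missed both limits. Its background was 1.95 times the floor, so it counts as low-background, and its q of 0.0571 did not pass. The other 17 low-background peaks of this window lay over 100 kb from the end.

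In that group the folds were higher within 25 kb of the end than beyond 45 kb, limits that were chosen after the list was seen. The 7 high-background peaks within 25 kb had folds of 2.96 to 4.43 (median 3.62), the 4 at 25 to 45 kb had 2.70 to 3.19 (median 3.13), and the 7 beyond 45 kb had 2.04 to 2.80 (median 2.56). The first and the last of these ranges did not overlap, but the limits were set with these peaks known. Within 25 kb the folds did not rise steadily toward the end. Peaks at 0.101, 2.22 and 8.39 kb had 3.71, 3.27 and 2.96, and the peak at 10.6 kb had 4.43. Over the 18 peaks, Spearman's rank correlation of fold with distance was -0.785, given as a description since the peaks share 2 libraries and their neighbourhood. Background moved with both: its rank correlation was -0.711 with fold and 0.490 with distance, and its part in the trend was not tested.

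The strongest peak near any chromosome end, at 29946682 to 29946881 and 10.6 kb from the last listed position of chromosome 5, was covered by 107 ChIP and 57 input fragments. Its fold was 4.43 (3.64 to 5.35), and with the counting error of the input included the scaled ratio of ChIP to input was 4.58 (95% Clopper-Pearson interval 3.29 to 6.43). Its neighbour at 29944917 to 29945123 carried 116 and 69, which is a fold of 4.0 (3.31 to 4.79). The outermost peak, at 29957215 to 29957417, carried 103 and 66, a fold of 3.71 (3.03 to 4.49), and that at 29936283 to 29936488 carried 93 and 61, a fold of 3.62 (2.93 to 4.42). Each of these 4 intervals overlapped the others, and the order is therefore unresolved.

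Between them lay peaks with more DNA in both libraries. At 29938734 to 29938920 the ChIP library had 288 fragments and the input 221, for a fold of 3.16 (2.80 to 3.54). At 29948910 to 29949095 there were 264 and 216, for a fold of 2.96 (2.62 to 3.34). Farther in, 3 peaks lay within 3 kb of each other. Their folds were 2.67 (2.41 to 2.96) at 29905198 to 29905392, 2.48 (2.21 to 2.77) at 29906620 to 29906806 and 2.55 (2.29 to 2.82) at 29907749 to 29907930, each over 304 to 347 input fragments. These 3 intervals lay below that of the strongest peak, and so did those of their ratios with the counting error of the input (highest upper limit 3.12, against 3.29). The innermost high-background peak, at 29804806 to 29804990 and 153 kb from the end, reached 586 ChIP fragments over 557 from the input, for a fold of 2.56 (2.36 to 2.78).

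At the start of chromosome 6 the high-background peaks stood off the end by 30.8 kb or more. A pair lay at 30659 to 30853, where 63 ChIP fragments stood over 50 from the input (fold 2.98, 2.30 to 3.80), and at 32271 to 32478, where 517 stood over 607 (fold 2.07, 1.9 to 2.26). A series of 6 peaks past q followed from 66889 to 86668, over 19.8 kb, of which 5 were high-background. Its strongest peak, at 77439 to 77649, gave a fold of 3.49 (2.79 to 4.31) from 84 ChIP and 57 input fragments. Its deepest, at 84211 to 84442, gave 447 and 476, a fold of 2.29 (2.08 to 2.51). These fold intervals did not overlap, but with the counting error of the input the scaled ratios, 3.60 (2.54 to 5.13) and 2.29 (2.01 to 2.61), did. The series on chromosomes 5 and 6 were the only ones of at least 4 linked peaks past q in any end window. Such series were not looked for among the other peaks.

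**Figure D4:**
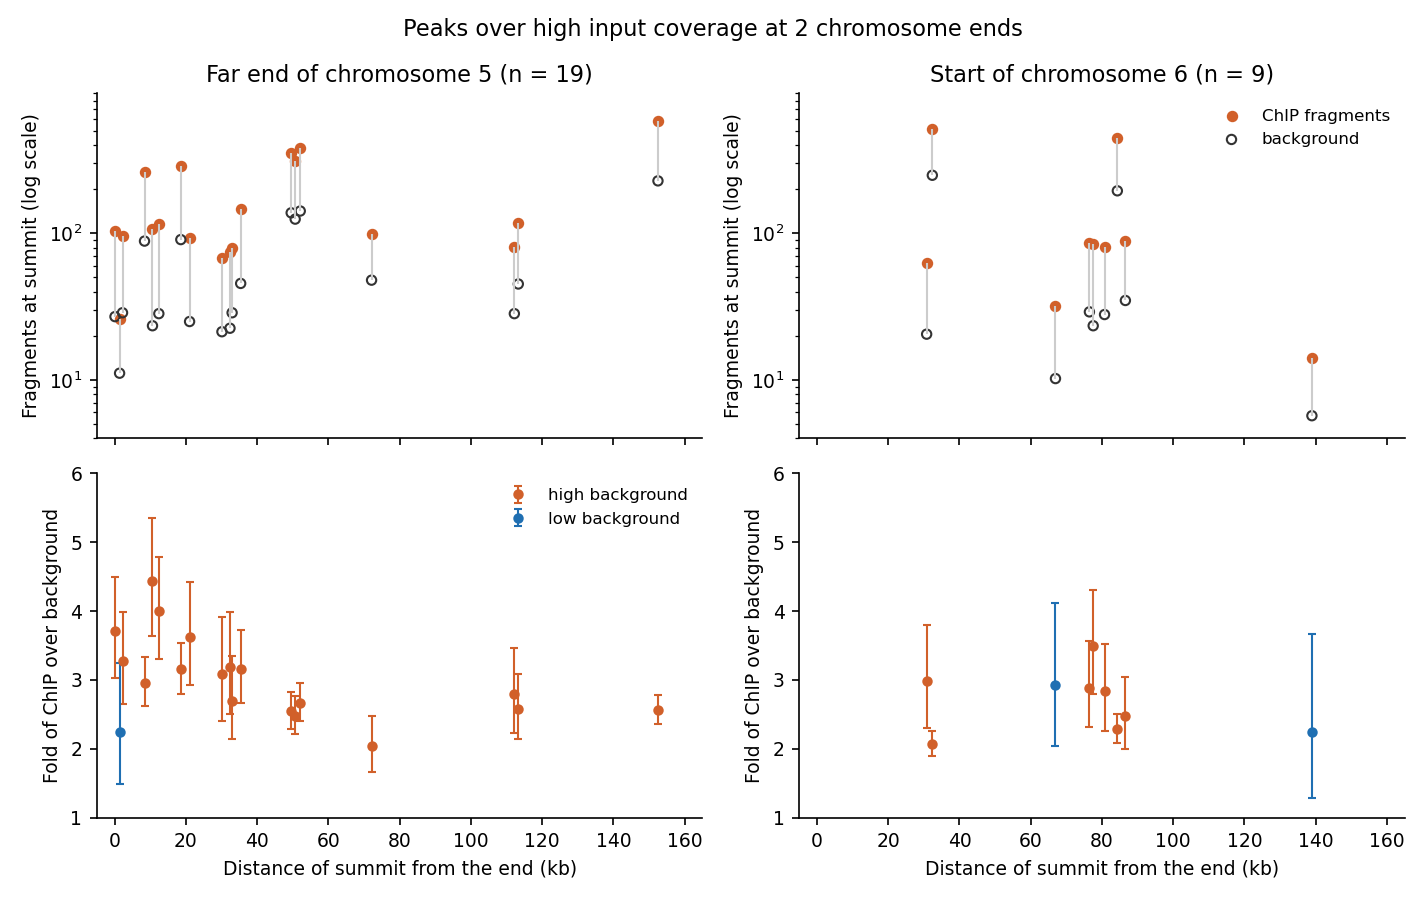
Upper panels, ChIP fragments (filled) and background (open) at each summit on a log scale against distance from the end in kb, for peaks within 160 kb of the far end of chromosome 5 (left) and of the start of chromosome 6 (right). Lower panels, the fold with its 95% Poisson interval: folds on chromosome 5 run from 4.43 at 10.6 kb to 2.04 at 72.1 kb, and those on chromosome 6 from 2.07 to 3.49.

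At the start of chromosome 9, the nucleolar organiser end, a single peak stood out. It ran from 1075 to 3298, was 2224 bp wide, the widest in the list, and had 1147 ChIP over 1259 input fragments, a background 90.7 times the floor and the highest of all. Its fold was 2.22 (2.09 to 2.35), under the median of the end peaks. The other 15 peaks of this window were low-background, 2 of them passed q, and the highest fold among all 16 was 2.84. Whether the peak at 1075 covers ribosomal RNA genes was not tested.

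The remaining 8 high-background peaks lay at 5 ends. On chromosome 5, 916 kb from the start, adjacent peaks at 915422 to 915657 and 915851 to 916233 had 120 and 173 ChIP fragments, giving folds of 3.02 (2.50 to 3.60) and 2.04 (1.75 to 2.36). Those intervals leave out the counting error of the input. With it, the ratio of the second peak was 2.05 (1.66 to 2.52). The background of the first was not a whole number of input fragments, so it has no such ratio. The difference between the neighbours was not tested. The far end of chromosome 10 had 3, with folds of 2.35 to 2.73 and backgrounds of 5.04 to 8.93 times the floor, at 414 to 740 kb from the end. The start of chromosome 2 had 1, with a fold of 2.41 (1.74 to 3.27), and the far end of chromosome 4 had 1 that did not pass q, with a fold of 2.13 (1.42 to 3.08). The last peak of chromosome 8, at 28426185 to 28426375, stood at 71 ChIP over 54 input fragments, a fold of 3.11 (2.44 to 3.92).

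High-background peaks near the ends were narrower and had higher folds than those elsewhere by their medians, mostly through 1 end. The highest fold of a high-background peak lay elsewhere (8.95, against 4.43 near the ends). Their median width was 197 bp (quartiles 187 and 216), against 243 bp (195 and 454) for the 100 others, and 24 of 34 were at most 210 bp wide, against 39 of 100. Their median fold was 2.76, against 2.35, and folds of 3 or more were found at 12 of 34 (35.3%, 21.5 to 52.1%) and 11 of 100 (11%, 6.25 to 18.6%). Of the 12, 9 were at the far end of chromosome 5, whose 18 high-background peaks had a median width of 189 bp and a median fold of 3.03. Without them the other 16 had a median width of 214 bp, a median fold of 2.51 and 3 peaks with a fold of 3 or more (18.8%, 6.59 to 43%), an interval that overlaps that of the peaks elsewhere. A q of 1e-10 or below was found at 94 of the 6660 peaks on the numbered chromosomes. Of these 94, 31 were among the 494 end peaks, and all 31 were high-background. How many of those elsewhere were high-background was not counted, so this is not shown to be particular to the ends.

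Over a low background, the strongest end peaks were single sites. The highest fold was that of chromosome 10 at 22998782 to 22999027, 186 kb from the end, where 26 ChIP fragments over the floor gave a fold of 4.04 (2.69 to 5.85). Peaks at 36027944 to 36028197 on chromosome 3 and 28702834 to 28703077 on chromosome 7 each reached a fold of 3.89 (2.57 to 5.67) from 25 fragments over the floor. On chromosome 2 the peak at 35459015 to 35459200 reached 36 fragments over 9.01, a fold of 3.69 (2.62 to 5.08). On the start side the highest was also on chromosome 2, at 492011 to 492318, where 22 fragments gave a fold of 3.44 (2.21 to 5.13). All these intervals overlapped each other and that of the strongest peak on chromosome 5. The highest fold at each of the 24 ends ran from 2.72 (start of chromosome 8) to 4.43, with a median of 3.13, and passed q at every end.

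**Figure D5:**
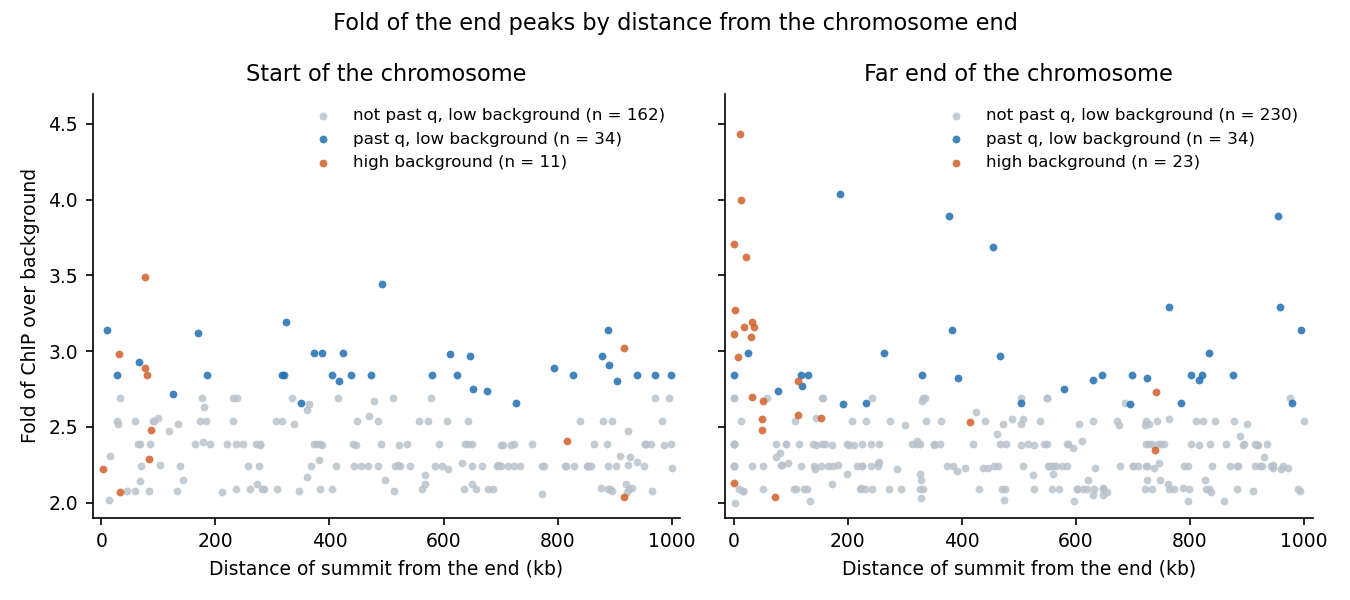
Fold of ChIP over background of the 494 end peaks against the distance of the summit from the end in kb, on the start side (left) and the far side (right), coloured by background and q. Low-background peaks past q are spread over the whole 1 Mb, 34 on each side, while 25 of the 34 high-background peaks lie within 100 kb.

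The peaks nearest an end all lay on the far side, because each last listed position is the edge of the last peak itself. Their distances, 53 to 354 bp over the far ends, run from summit to edge of the same peak and do not measure closeness to a telomere. The last peaks of chromosomes 9, 6 and 2, with summits 53, 59 and 65 bp before the last listed positions, had 15, 14 and 15 fragments and folds of 2.39, 2.24 and 2.39 over the floor, and none passed q. Those of chromosomes 8 and 5, at 97 and 101 bp, were the high-background peaks described above. The last peak of chromosome 7 had 18 fragments and a fold of 2.84, and it passed q (0.0192). At the 1 Mb limit, the 2 peaks just inside it (start of chromosome 4 at 999920 to 1000279 and of chromosome 7 at 999208 to 999419) had folds of 2.23 and 2.84, and the 2 just outside (chromosome 7 at 28656646 to 28656826 and chromosome 2 at 34910204 to 34910415) had 2.24 and 2.38.

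Close neighbours were found at overlapping rates near the ends and elsewhere. Another listed summit lay within 2 kb for 59 of 494 end peaks (11.9%, 9.37 to 15.1%) and 625 of 6166 others (10.1%, 9.41 to 10.9%). For low-background peaks the counts were 40 of 460 (8.70%, 6.45 to 11.6%) and 586 of 6066 (9.66%, 8.94 to 10.4%), and for high-background end peaks 19 of 34 (55.9%, 39.5 to 71.1%), against 39 of 100 high-background peaks elsewhere (39.0%, 30.0 to 48.8%), with overlapping intervals.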

How the data were processed

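Tools named in the submitters' processing notes are MACS2 2.2.7.1, BWA 0.7.12-r1039 and Trimmomatic 0.36; for settings, build and duplicates the sources used here give nothing. What the authors deposited is 1 peak list, ChIP against input per the peak names. Per the file headers it gives the pileup, a signal (fragment coverage at the summit), the fold enrichment (a ratio), and p-values and q-values as −log10. Only listed peaks are known, so shares are shares of listed peaks. Members, limits and lists were chosen with earlier results of these data known.

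All else was computed with pandas 2.3.3, scipy 1.17.1, numpy 2.4.6 and matplotlib 3.10.9 under Python 3.11.15. The background was solved as (pileup + 1)/fold − 1. With it, a Poisson upper tail gave every deposited −log10 p-value to within 3.36e-04. Of 1014 backgrounds over the floor by a margin, 84.7% were whole multiples of 0.410 to within 0.05 fragments, read as the weight of 1 input fragment, and input fragments are given for high-background peaks that met this (31 of 34 near the ends). Fold intervals are exact Poisson limits of the pileup with the background held fixed; ratio intervals are Clopper-Pearson; shares have Wilson intervals; a count of 0 is given the limit of 3 counts. All cover counting error only, since PCR copies are not independent fragments. The recovery of floor and weight was tested on simulated data.

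Peaks named are the 10 end peaks of highest fold, the 10 of highest background, the 5 nearest an end, the linked series, the highest fold per end as a range, and those at the 1 Mb limit; the other high-background peaks, and the highest low-background peaks, were named after their values were seen. Alternatives changed the window, the limits and the peaks included.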

Additional observations from a re-analysis of the deposited data

Results flagged for a closer look

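Outside the numbered chromosomes, which the comparisons used, the list held 12 peaks on ChrSy and ChrUn, and 3 of them passed a q of 0.05. Their folds ran from 2.08 to 3.14 and none was high-background. They have no chromosome end to be measured from. With 1 library per group, no outlying sample and no difference between groups could be looked for.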

How the results depend on the processing

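Of 75 alternatives, 41 left the value within 1.5 times (counts) or within the 95% interval (shares, medians, densities), and 34 moved it. Only the difference in number of peaks between the start and the far side could reverse, as the other values have no sign. The far side held more peaks in all 3 alternatives for that difference (by 63 to 68). The order of end peaks and other peaks was not among the values followed. The 494 end peaks became 253 with windows of 0.5 Mb, 981 with 2 Mb and 101 when limited to those past q. The share past q (20.4%) became 24.5% and 17.0% with those windows, 14.8% without high-background peaks, 11.9% at q of 0.01, 28.9% at 0.1, and 16.1% without the far end of chromosome 5 and the start of chromosome 6. That of the other peaks (15.4%) became 14.1% without high-background peaks, 8.81% and 24.5% at q of 0.01 and 0.1. On the start side (21.7%) these limits gave 12.1% and 30.0%, on the far side (19.5%) 11.8% and 28.2%. The far side became 12.9% without high-background peaks and 14.7% without the end of chromosome 5. The median fold of 2.39 became 2.84 past q and 2.62 as plain pileup over background. The high-background share of 6.88% became 11.5% and 3.98% with windows of 0.5 and 2 Mb, 32.7% past q, 3.39% without the start of chromosome 9 and the far end of chromosome 5, and 2.06% without the latter and the start of chromosome 6. At folds of 4 or more, 2 end peaks became 1 without high-background peaks or without the end of chromosome 5 (with either start), 5 as plain pileup over background, and 25 at a fold of 3. The 2 linked series became 0 without high-background peaks. Their number stayed 2 with gaps of at most 10 or 50 kb, though not their extent. At 10 kb the series on chromosome 5 was divided. At 50 kb both series took in further peaks past q, on chromosome 6 the pair at 30659 and 32271. Apart from fewer peaks entering, the cause was not tested. The alternative for a W-box was not run, since it needs a genome sequence. No paired analysis was possible because each group has 1 library, and no replicate could be left out. With 26 fragments at the highest low-background peak, the depth leaves its fold an interval of 2.69 to 5.85.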
